A study of Rattus norvegicus with 17 samples.

Results

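Integrins are adhesion receptors of the cell surface, each built from an alpha and a beta subunit. Outside the cell the pair binds matrix proteins such as fibronectin, vitronectin, laminins or collagens, and inside it is tied to actin through talin, kindlins and a complex of adaptors and kinases. The gubernaculum is a fetal ligament whose bulb of matrix-rich mesenchyme enlarges under Insl3, a hormone of the testis, and its cells are held in that matrix by such receptors. The 9 genes described here encode the beta subunits Itgb3, Itgb1 and Itgb5 and the alpha subunits Itgav, Itga1, Itga5, Itga6, Itga7 and Itga8. They were chosen by name from 10665 genes with a tested probe set, and every probe set that the platform annotation gives to a single gene among them was taken, 20 in all. Of these 18 passed the filter on low values and were tested, with at least 1 for each gene. The other 2, Itga6 1371185_at and Itga7 1371214_at, lay at the floor of the scale, 2.11, on all 15 arrays used.

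The cultures were gubernaculum bulbs of male Long Evans rat fetuses, taken at gestational day 17, with 2 bulbs pooled in each biological replicate. All groups spent 24 h in hormone-free medium with stripped serum and an insulin supplement. A further 24 h followed in the same medium (control, 6 arrays), with 10 nM Insl3 (3 arrays) or with 100 nM Insl3 (6 arrays). A pair of further 10 nM arrays, replicates 4 and 5, was left out as the submitters did, and their values are given beside the results as set-aside arrays. Of the 3 arrays used at 10 nM the labels give an RNA integrity number for replicate 3 alone.

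Values are GCRMA log2 values, in which a step of 1 is a 2-fold difference in signal. They cannot be compared between probe sets, so each probe set is followed across the doses. A probe set is said to have risen or fallen where its Benjamini-Hochberg adjusted p over all 18938 tested probe sets was under 0.05 in limma's moderated test. Matrix-producing mesenchyme was plainly present, with Col1a1 at 14.90, Pdgfra at 13.30 and Wt1 at 11.96 in controls. None of the 6 measured mesenchyme markers of a list of 10 was called in any comparison (limma; 2 at an unadjusted p under 0.05 at 100 nM). Of all genes 12.1% were called at 100 nM, 8.67% at 10 nM and 0.778% between the doses. A list this short can hold no call at such shares. A weaker probe set of Twist1 was called at 100 nM, at 1.2, and Esr1, the oestrogen receptor gene on that list, did not pass the filter. Skeletal muscle genes were present as well, with Myog at 14.85 and the mean of 8 measured markers from 10.51 to 10.90 over control arrays. In such whole tissue, fewer cells of a type and less RNA per cell cannot be told apart.

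At 100 nM 3 of the 18 integrin probe sets were called, 1 higher and 2 lower, against 10.9% of all tested probe sets (6.51% higher and 4.39% lower). They belong to Itgb3, which rose, and to Itga6, which fell on its strongest probe set and on a weaker one. At 10 nM 4 of 18 were called, 3 higher and 1 lower, against 10.6% of all tested probe sets (4.88% higher and 5.70% lower). These were Itgb3, Itgav and Itgb1, which rose, and Itga6. Between the doses 2 of 18 were lower at 100 nM than at 10 nM, for Itgav and Itgb1, against 1.43% of all (1.24% higher and 0.195% lower). Both comparisons with control use the same control arrays. The median change of the 18 was 0.11 at 100 nM and 0.21 at 10 nM, beside 0.00 and 0.034 over all tested probe sets.

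**Figure D1:**
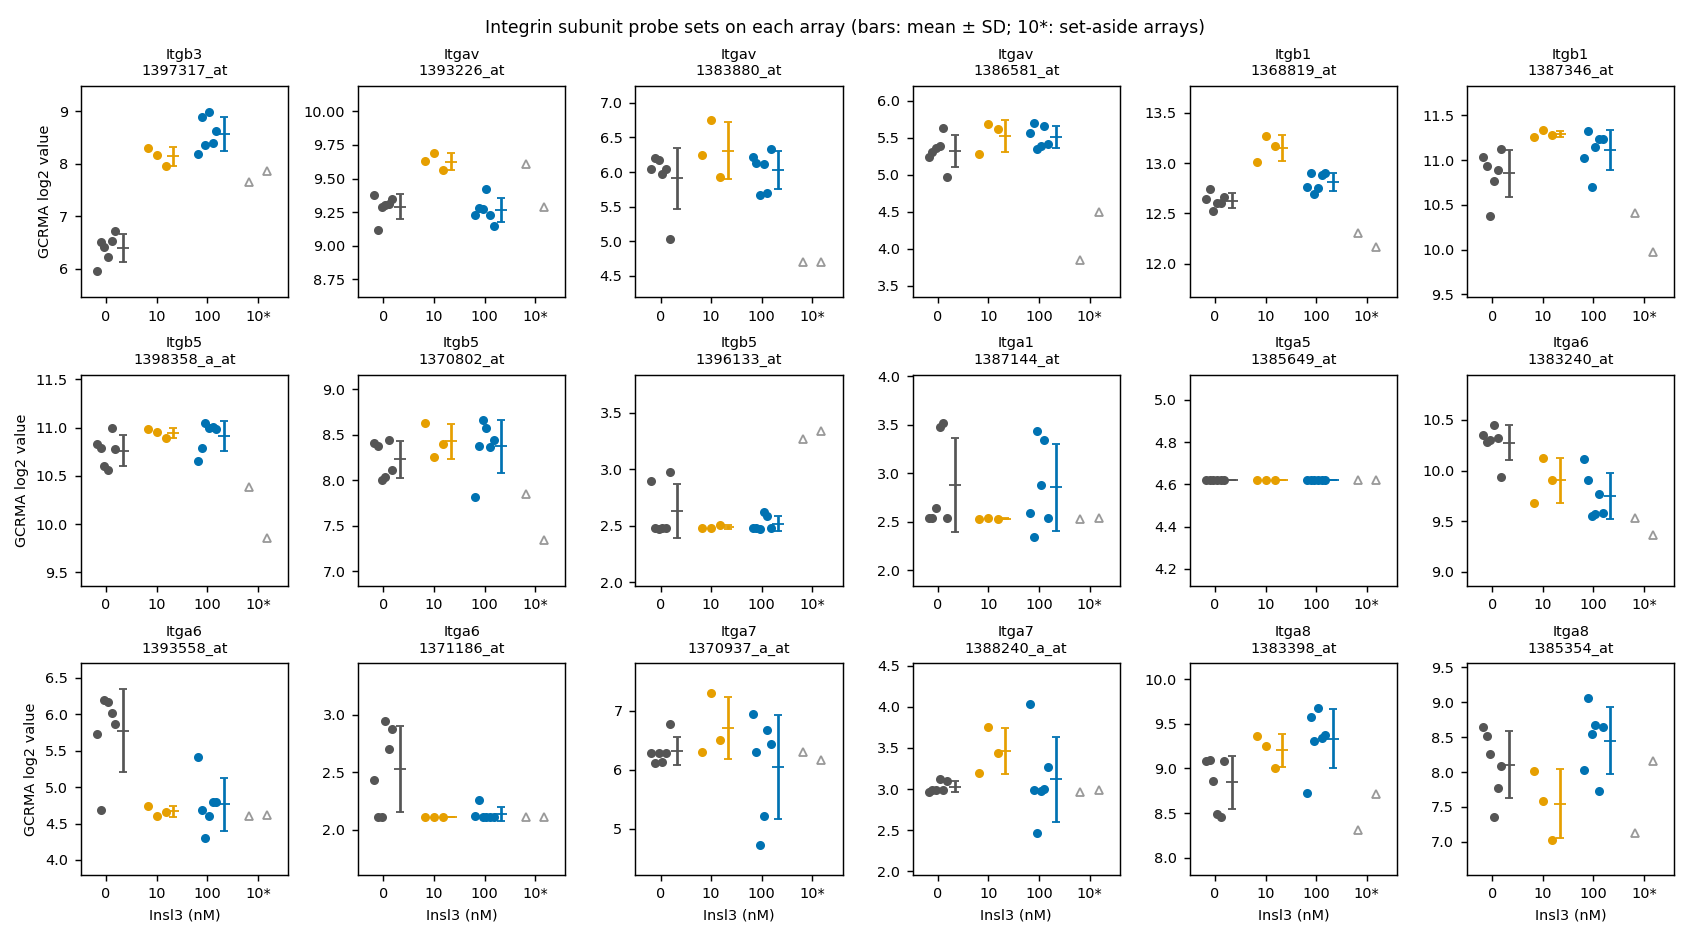
GCRMA log2 values of the 18 tested integrin subunit probe sets on each array (points) by Insl3 concentration in nM, with mean and SD beside each group; open triangles are the set-aside 10 nM arrays, and each panel has its own vertical scale. Itgb3 lies between 5.96 and 6.72 in controls and between 7.95 and 8.99 on all 9 Insl3 arrays used.

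Itgb3 encodes the beta subunit that joins Itgav in the vitronectin receptor and Itga2b in the fibrinogen receptor of platelets. Its probe set 1397317_at ran from 5.96 to 6.72 in the 6 controls, with a median of 6.45. At 10 nM the 3 arrays stood at 8.31, 8.17 and 7.95, and at 100 nM the 6 arrays ran from 8.18 to 8.99, with a median of 8.51. Every Insl3 array lay above every control array, while the 2 doses overlapped. Over all tested probe sets, groups without overlap made up 4.96% at 100 nM and 17.0% at 10 nM. The mean was 6.39 ± 0.26 in controls (SD, n = 6), 8.14 ± 0.18 at 10 nM (n = 3) and 8.57 ± 0.32 at 100 nM (n = 6). The gene rose 4.54-fold at 100 nM (2.18 ± 0.15 log2 units, SE; adjusted p = 9.04e-07, limma) and 3.37-fold at 10 nM (1.75 ± 0.19; adjusted p = 0.000112, limma). The step from 10 to 100 nM, 0.43 log2 units with a 95% interval of 0.03 to 0.83, did not pass the test (adjusted p = 0.36, limma). The set-aside 10 nM arrays stood at 7.66 and 7.87, also above every control.

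The size of the Itgb3 rise was similar whichever arrays were used. Controls and 100 nM arrays were also fitted in separate sets, replicates 1, 2 and 6 and replicates 3, 4 and 5, a division that an earlier reading of these data had found and that no label names. At 10 nM the first set has replicates 1 and 2 alone, as there is no 10 nM replicate 6. The rise at 100 nM was 2.17 log2 units in the first set alone and 2.19 in the second. Leaving out any 1 of the 15 arrays gave 2.10 to 2.26 at 100 nM and 1.67 to 1.85 at 10 nM, all called. With the set-aside arrays included the rise at 10 nM was 1.60, also called (adjusted p = 5.47e-05, limma).

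Markers of the other cells known for this subunit were read beside it. Of 10 platelet and megakaryocyte markers 7 have a probe set and 3 passed the filter, and Ppbp, Gp9, Gp5 and Treml1 did not. Itga2b, the platelet partner of Itgb3, was near the floor at 2.55 in controls, 2.68 at 10 nM and 2.54 at 100 nM, and Pf4, a platelet chemokine gene, was at 10.13, 10.11 and 9.70. The mean of the 3 measured markers ran from 4.72 to 5.40 over control arrays, from 4.92 to 5.07 at 10 nM and from 4.61 to 5.14 at 100 nM. Of 9 endothelial markers 6 were measured. Of these 2 rose and 4 were not called at each dose (33.3% called, against 12.1% of all genes at 100 nM and 8.67% at 10 nM). The list's median change was 0.04 at 100 nM and 0.14 at 10 nM. Cldn5, a tight junction gene, rose by 1.60 log2 units at 10 nM and 2.83 at 100 nM, and Kdr, a VEGF receptor gene, by 0.78 and 0.94, although the Kdr call at 10 nM was lost with the set-aside arrays included (0.48). Pecam1 was near the floor at 2.95, 3.16 and 2.96 in the 3 groups, Tie1 was at 2.22 in controls, and Tek and Flt1 did not pass the filter. The endothelial mean ran from 6.36 to 6.65 in controls, from 6.59 to 6.95 at 10 nM and from 6.74 to 7.42 at 100 nM, and its part in the Itgb3 result was not tested.

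Itgb1 encodes the subunit shared by most matrix-binding integrins, those of Itga1, Itga5, Itga6, Itga7 and Itga8 among them. Its probe set 1368819_at ran from 12.52 to 12.74 in controls, with a median of 12.62. The 3 arrays at 10 nM stood at 13.01, 13.27 and 13.17, above all others, and the 6 at 100 nM ran from 12.69 to 12.90, with a median of 12.82. Itgb1 was thus highest at 10 nM, and the 100 nM arrays overlapped the controls. Between the doses, groups without overlap made up 7.85% of all tested probe sets. It rose 1.43-fold at 10 nM (0.52 ± 0.07, SE; adjusted p = 0.00069, limma). At 100 nM the change was 0.18 ± 0.06 and did not pass (adjusted p = 0.0643, limma), although it did without 100 nM replicate 3 (0.21; adjusted p = 0.0452, limma). The 100 nM group lay 0.34 log2 units below 10 nM (-0.34 ± 0.07; adjusted p = 0.0412, limma). The other Itgb1 probe set, 1387346_at, changed by 0.44 at 10 nM and 0.26 at 100 nM, called in neither (adjusted p = 0.086 and 0.203, limma). Without control replicate 6 its change at 10 nM was 0.49 and was called (adjusted p = 0.0486, limma). With the set-aside arrays, at 10.41 and 9.97, it was 0.00 (adjusted p = 0.999, limma).

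The Itgb1 rise rests on the 3 arrays used. In replicates 1, 2 and 6 alone, which at 10 nM means replicates 1 and 2, the rise of 1368819_at was 0.46 and was not called (adjusted p = 0.0769, limma). The set-aside 10 nM arrays stood at 12.31 and 12.17 for 1368819_at, below every control, and with them in the group the change at 10 nM was 0.16 and was not called (adjusted p = 0.58, limma). The difference between the doses then turned to 0.03. That difference also lost its call in 10 of the 15 fits that left out 1 array, those without 10 nM replicate 2 or 3, 100 nM replicate 1, 2, 3, 4 or 6, or control replicate 3, 4 or 5, with adjusted p up to 0.249.

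Itgav, the alpha subunit that pairs with Itgb3, Itgb5 and Itgb1 in receptors for vitronectin and fibronectin, has 3 probe sets. The one with the strongest signal, 1393226_at, ran from 9.12 to 9.38 in controls, with a median of 9.31, and from 9.15 to 9.42 at 100 nM, with a median of 9.25. At 10 nM its arrays stood at 9.63, 9.69 and 9.56, above all control and 100 nM arrays. It rose 1.26-fold at 10 nM (0.33 ± 0.07 log2 units, SE, adjusted p = 0.00681, limma). In replicates 1, 2 and 6 alone, again without a 10 nM replicate 6, it rose by 0.38 and was not called (adjusted p = 0.126, limma). At 100 nM it differed from control by -0.03, with a 95% interval of -0.15 to 0.09, and lay below 10 nM by 0.36 log2 units (-0.36 ± 0.07; adjusted p = 0.0267, limma). The dose difference was not called in a fit lacking any of the 3 arrays at 10 nM, or 100 nM replicate 2 or replicate 6 (limma, highest adjusted p 0.152), nor with the set-aside arrays, at 9.61 and 9.29, included (adjusted p = 0.0675, limma). The weaker probe sets 1383880_at and 1386581_at changed by 0.40 and 0.21 at 10 nM and by 0.12 and 0.20 at 100 nM, with no call. Itgav therefore had its highest values at 10 nM on its strongest probe set, and Itgb3 had its highest at 100 nM.

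**Figure D2:**
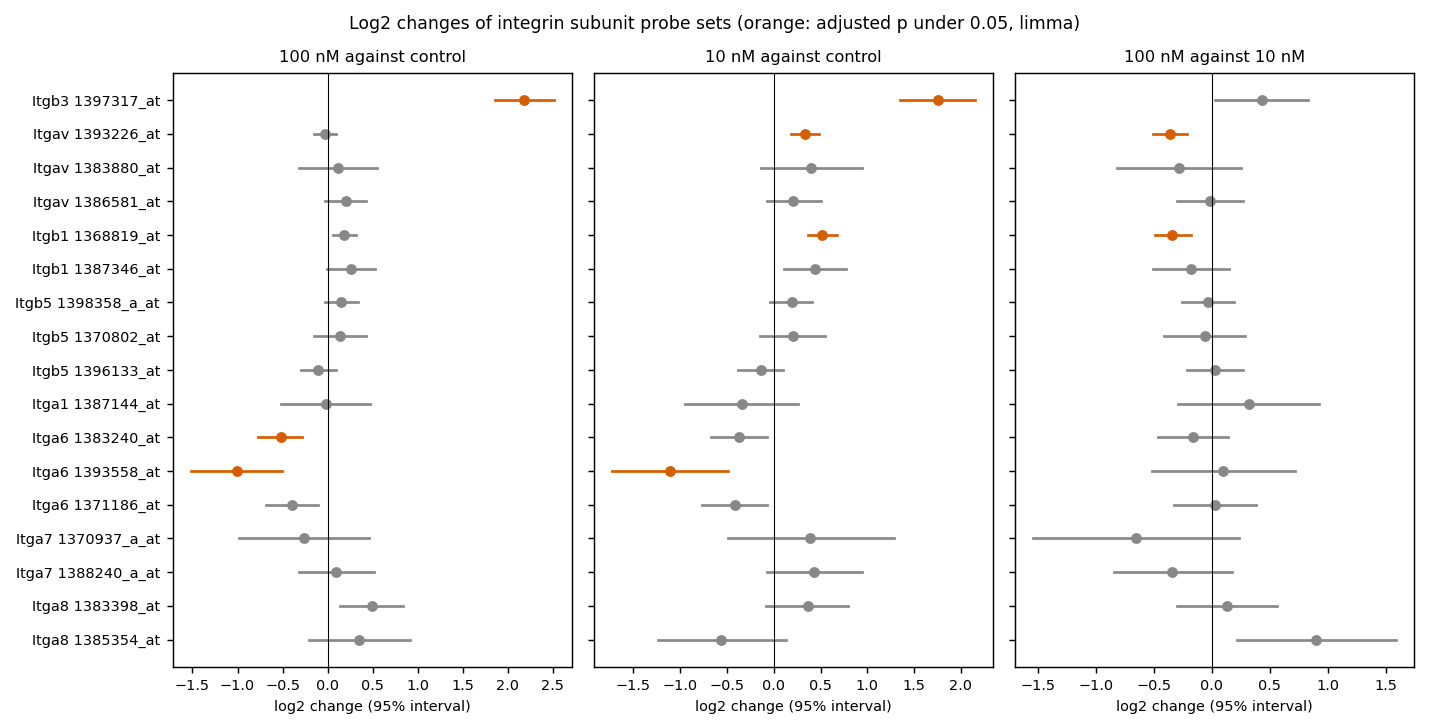
Log2 changes (points) with 95% intervals (lines) of 17 integrin subunit probe sets in the 3 comparisons, orange where the adjusted p was under 0.05 and grey where it was not; Itga5, with a single value on all arrays, is not drawn. Itgb3 stands at 2.18 and 1.75 against control, and Itgav and Itgb1 are called at 10 nM and again, below 0, in the comparison of the doses.

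The sequences upstream of Itgb1 and Itgav are shown because both genes were higher on the 10 nM arrays used than in the other groups. For Itgb1 this did not hold with the set-aside arrays included. RefSeq entries of assembly GRCr8 were matched for 6 of the 9 genes, but not for Itgb3, Itga6 or Itga7. Shown are the 250 bases before the annotated start, 5′ to 3′ on the plus strand. Capitals mark matches on either strand to GGGCGG (the GC box) and to TGACG (the half-site of the cyclic AMP response element, which CREB binds). The search also covered TGACGTCA, the AP-1 site TGANTCA and the TATA box TATAAA, all picked with the results known.

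Itgb1, chr19:73602027-73602276: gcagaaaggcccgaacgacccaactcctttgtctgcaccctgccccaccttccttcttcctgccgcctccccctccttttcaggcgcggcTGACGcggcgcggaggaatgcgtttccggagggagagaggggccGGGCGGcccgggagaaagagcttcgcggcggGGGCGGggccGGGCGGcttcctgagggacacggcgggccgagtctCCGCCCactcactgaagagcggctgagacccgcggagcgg
Itgav, chr3:89245132-89245381: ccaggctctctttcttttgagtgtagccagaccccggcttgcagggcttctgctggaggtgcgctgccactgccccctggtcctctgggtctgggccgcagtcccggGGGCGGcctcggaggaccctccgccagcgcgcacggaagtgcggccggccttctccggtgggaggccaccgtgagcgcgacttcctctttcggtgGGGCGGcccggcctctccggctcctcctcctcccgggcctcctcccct

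The Itgb1 stretch holds 4 GC boxes and 1 TGACG half-site, and the Itgav stretch holds 2 GC boxes. Over 33469 stretches of the same length in the table, 30.5% hold a GC box and 18.2% a TGACG half-site on either strand. The full element TGACGTCA, which overlaps the half-site, is in 1.59%, TGANTCA in 6.34% and TATAAA in 12.9%, and none of the 3 is in either stretch. The G and C share was 71.2% for Itgb1 and 72% for Itgav, above the median of 51.2%. Of the matched genes without a call, Itga8 had 1 TGACG half-site and Itga5 had 1 GC box, while Itga1 and Itgb5 had neither. These are letter matches, not measured binding.

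Itga6 encodes the alpha subunit of laminin receptors, paired with Itgb1 or, in epithelia, with Itgb4. Its strongest probe set, 1383240_at, ran from 9.94 to 10.45 in controls, with a median of 10.31. At 10 nM the arrays stood at 9.68, 10.12 and 9.91, and at 100 nM they ran from 9.55 to 10.11, with a median of 9.68. Most Insl3 arrays lay below the controls, and the overlap came through control replicate 6, the lowest control. Itga6 was 1.44-fold lower at 100 nM by this probe set (-0.52 ± 0.11, SE; adjusted p = 0.0108, limma). At 10 nM the change was -0.37 and did not pass (adjusted p = 0.123, limma), although it did with the set-aside arrays included (-0.55; adjusted p = 0.0191, limma), which stood at 9.53 and 9.36, and without control replicate 6 (-0.43; adjusted p = 0.0439, limma).

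A second Itga6 probe set, 1393558_at, showed the same direction on a weaker signal. It ran from 4.68 to 6.20 in controls, with a median of 5.94, and from 4.30 to 5.41 at 100 nM, with a median of 4.73. The 10 nM arrays stood at 4.74, 4.60 and 4.66, and the set-aside arrays at 4.60 and 4.62. Control replicate 2, at 4.68, lay with the Insl3 arrays and the other 5 controls were above all of them. It fell by 1.01 ± 0.24 log2 units at 100 nM (SE; adjusted p = 0.0149, limma) and by 1.11 ± 0.29 at 10 nM (adjusted p = 0.0239, limma), but the 10 nM call was lost without any 1 of the 10 nM arrays (adjusted p up to 0.0895). It was also lost without the filter on low values (adjusted p = 0.0588, limma), with only the 2 groups fitted (adjusted p = 0.0597, limma) and in replicates 1, 2 and 6 (-0.76; adjusted p = 0.464, limma). The third tested probe set, 1371186_at, was at the floor on most arrays and was at -0.39 (100 nM) and -0.42 (10 nM) with no call. Without control replicate 2 both passed (adjusted p = 0.0304 and 0.0485, limma), and without control replicate 3 the first did (adjusted p = 0.0334, limma).

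The Itga6 changes at 100 nM were also read in each set of replicates, a division found in these data. In replicates 3, 4 and 5 the changes at 100 nM were -0.73 for 1383240_at and -1.56 for 1393558_at (adjusted p = 0.0144 and 0.00887, limma). In replicates 1, 2 and 6 they were -0.32 and -0.47 and were not called (adjusted p = 0.457 and 0.548, limma). That set holds the outlying controls, replicate 6 for 1383240_at (9.94) and replicate 2 for 1393558_at (4.68). Over all tested probe sets it gave 200 calls at 100 nM, and replicates 3, 4 and 5 gave 1691. The difference between the sets was not tested.

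Blood cell markers were lower at 100 nM too, while none was called at 10 nM, where 8.67% of all genes were. Calls were made for 6 of the 7 measured erythroid markers and 4 of the 10 measured macrophage and leukocyte markers, against 12.1% of all genes. Of these, Hemgn was called in only 4 of the fits that left out an array, those without control replicate 1, 2 or 6 or 100 nM replicate 3. Cd68 lost its call in 9 such fits, in all but those without a 10 nM array, 100 nM replicate 1 or 5 or control replicate 3, and Mrc1 in 5, those without 100 nM replicate 2 or 6 or control replicate 3, 4 or 5. With the set-aside arrays in the shared spread Hemgn, Ptprc, Cd68 and Mrc1 were not called (adjusted p = 0.0529, 0.0916, 0.152 and 0.167, limma). Lcp1 and the other erythroid genes kept their calls. The erythroid mean ran from 8.48 to 10.97 in controls, from 8.32 to 9.92 at 10 nM and from 6.06 to 8.86 at 100 nM, and the macrophage and leukocyte mean from 9.25 to 9.69, from 8.99 to 9.75 and from 8.70 to 9.52. Of 9 epithelial and mesothelial markers 6 were measured, with means from 5.91 to 8.17 in controls, from 6.95 to 7.29 at 10 nM and from 6.25 to 7.30 at 100 nM, while Epcam and Cldn4 did not pass the filter and the Itgb4 probe set did not either. On the set-aside arrays the erythroid mean ran from 10.15 to 11.39 and the macrophage and leukocyte mean from 8.53 to 9.08. The epithelial and mesothelial mean ran from 7.28 to 8.87 there. The part of these cells in the Itga6 result was not tested.

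The remaining alpha subunits passed no test. Itga8, a receptor subunit for nephronectin and fibronectin that is needed in kidney development, ran on 1383398_at from 8.46 to 9.10 in controls, stood at 9.36, 9.25 and 9.0 at 10 nM and ran from 8.72 to 9.68 at 100 nM. Its change at 100 nM was 0.49, with a 95% interval of 0.14 to 0.84 (adjusted p = 0.0733, limma). Without 100 nM replicate 1, the array at 8.72, the change was 0.61 and was called (adjusted p = 0.0133, limma). It was 0.84 and called in replicates 3, 4 and 5 (adjusted p = 0.0389, limma), and 0.14 in replicates 1, 2 and 6 (adjusted p = 0.786, limma). The other Itga8 probe set, 1385354_at, changed by 0.35 at 100 nM and by -0.56 at 10 nM, where 1383398_at changed by 0.36, so the 2 probe sets disagreed in direction at the lower dose, with neither called.

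Itga7, the laminin receptor subunit of muscle, ran from 6.12 to 6.78 in controls on 1370937_a_at and spread widely at 100 nM, from 4.72 to 6.95. Its change was -0.26 with a 95% interval of -0.98 to 0.46, whose lower end is 1.98-fold lower. The weak probe set 1388240_a_at changed by 0.43 at 10 nM and 0.09 at 100 nM, with no call. Of 8 measured skeletal muscle markers Musk and Myod1 fell at 100 nM, by 0.49 and 0.32 log2 units (25.0%, against 12.1% of all genes). Myod1 was not called without 100 nM replicate 2 or 6. In replicates 3, 4 and 5 its change was -0.14 (adjusted p = 0.45, limma). Musk was also called lower at 10 nM (12.5%, against 8.67% of all genes), though not without 10 nM replicate 2.

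Itga1, a collagen receptor subunit, gave a low signal on 1387144_at, from 2.54 to 3.52 in controls, 2.53, 2.54 and 2.53 at 10 nM and from 2.34 to 3.44 at 100 nM. Itga5, the alpha subunit of the classical fibronectin receptor, was listed at 4.62 on every array, the set-aside arrays included. A signal without any spread carries no information on its level, although the value passed the filter. Such flat signals were rare, since 81 of the 18938 tested probe sets (0.428%) had a range under 0.05 over the 15 arrays.

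Itgb5, the beta subunit of another vitronectin receptor with Itgav, did not pass the test at either dose. Its strongest probe set, 1398358_a_at, ran from 10.56 to 11.00 in controls, stood at 10.99, 10.95 and 10.89 at 10 nM and ran from 10.65 to 11.05 at 100 nM. The changes were 0.19 at 10 nM (95% interval -0.04 to 0.41) and 0.15 at 100 nM (-0.03 to 0.34), far smaller than that of Itgb3. Its probe set 1370802_at changed by 0.20 and 0.14, and 1396133_at was near its lowest value on 11 of 15 arrays.

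The genes whose signal ran most like that of Itgb3 were sought among 10661 genes by Pearson's r over the 15 arrays. The closest were Wnt2, a secreted Wnt ligand (r = 0.981), Gda, guanine deaminase (0.979), Aebp1, a collagen-binding matrix protein gene (0.974), Gfra3, the artemin co-receptor (0.971) and Col8a1, a collagen chain (0.966). All of these were higher at both doses, by between 1.03 and 6.03 log2 units. With the group means removed r was 0.64, 0.55, 0.67, 0.53 and 0.12. For Itga6 1393558_at the closest were Cdc34, a ubiquitin-conjugating enzyme gene (0.886), Lias, lipoic acid synthase (0.879), N4bp2l2 (0.869), Tac3, a tachykinin precursor (0.865), and Ythdf2, an RNA-binding protein gene (0.863), which were 0.77, 0.63, 0.70, 0.64 and 0.79 within groups. The points share arrays and their normalization.

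The other integrin subunits on the array gave a single call. Of 17 listed 8 were measured, and at 100 nM Itgal, the leukocyte adhesion subunit, fell by 0.55 log2 units, which passed in 4 of the leave-one-out fits, those without control replicate 1 or 2 or 100 nM replicate 1 or 5, and reached an adjusted p of 0.0991 in the rest (limma). It was 1 call of 8, against 12.1% of all genes read by 1 probe set each, and the list's median was -0.04 beside 0.021. None of the 8 was called at 10 nM, where 8.67% of genes were (limma; 0 of 8 also at an unadjusted p under 0.05). Itga9, an alpha subunit of tenascin-C receptors, changed by 0.58 at 10 nM and 0.23 at 100 nM, and Itga3, a laminin receptor subunit, by 0.02 and 0.05.

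Inside the cell, the talin and kindlin machinery, read by 1 probe set per gene, had a share of calls near that of all genes. Of 40 measured activators and adhesion complex genes 1 rose and 3 fell at 100 nM (10.0% called, against 12.1% of all genes), with a median of 0.08. At 10 nM 2 rose and 1 fell (7.5%, against 8.67%), also with a median of 0.08. Arhgef7, a Rac and Cdc42 exchange factor of focal adhesions, rose by 0.81 ± 0.13 log2 units at 10 nM and 0.59 ± 0.11 at 100 nM (SE), but its other probe set was at -0.12 and -0.01 and not called. Kank2, a talin-binding protein gene, fell by 1.57 ± 0.33 at 10 nM, with its other 2 probe sets at -0.52 and 0.37 and not called. Src, the tyrosine kinase gene, rose by 0.43 at 10 nM, where its other probe set was called at 0.76; that probe set was called at 100 nM as well, at 0.85, and the stronger one was at 0.27 and was not. The 0.43 was no longer called when 10 nM replicate 1 or replicate 2 was dropped (limma, highest adjusted p 0.0928), and was 0.10 with the set-aside arrays. Fermt3, the kindlin of blood cells, fell by 0.46 at 100 nM, where 4 of the 10 macrophage and leukocyte markers were also called lower. The Fermt3 call was lost with the set-aside arrays (adjusted p = 0.0533, limma), although the change stayed at -0.46. Of those 4 markers only Lcp1 kept its call there. Those 10 nM arrays enter a comparison of 100 nM with control only through the shared estimate of the spread. Nedd9, an adaptor gene, fell by 0.37, with its other probe set at -0.19 and not called, and passed in 6 leave-one-out fits, those without 10 nM replicate 2, 100 nM replicate 1, 3 or 5 or control replicate 1 or 2. Vasp, an actin regulator gene, fell by 0.24 and did not pass without 100 nM replicate 3, 4 or 5 or control replicate 2, 4 or 5. The talin genes Tln1 and Tln2 were at 0.01 and -0.22 at 100 nM, and Ilk, the integrin-linked kinase gene, was at 0.19, all uncalled. Vcl, the gene of vinculin, which binds talin, was at -0.20 and not called on its strongest probe set, while another was called at -0.45 and the remaining one was at 0.07. Fermt2, another kindlin gene, was at 0.30 at 10 nM and 0.31 at 100 nM, uncalled, with its weaker probe set at -1.65 and -0.55. Probe sets also differed in direction at 10 nM for other genes of the list, among them Parva (0.22 and -1.09) and Tns1 (0.65 and -1.03).

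Among membrane partners 1 of 12 rose at 100 nM (8.33%, against 12.1% of all genes) and 2 of 12 at 10 nM (16.7%, against 8.67%), and the list's medians were 0.14 and 0.23. Cd63, a tetraspanin gene, rose by 0.25 ± 0.05 at 100 nM and by 0.22 at 10 nM, the latter not called in a fit lacking any of the 3 arrays at 10 nM (limma, highest adjusted p 0.111). Slc3a2, which encodes the heavy chain of an amino acid transporter that binds beta subunits, rose by 0.44 at 10 nM and lay 0.53 log2 units lower at 100 nM than at 10 nM. Its levels were 11.56 in controls, 12.00 at 10 nM and 11.47 at 100 nM, so like Itgav it was highest at 10 nM. The rise was not called when 10 nM replicate 1 or replicate 3 was dropped (limma, highest adjusted p 0.142). The dose difference passed in 5 leave-one-out fits, those without 10 nM replicate 2, 100 nM replicate 5 or control replicate 1, 3 or 6.

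**Figure D3:**
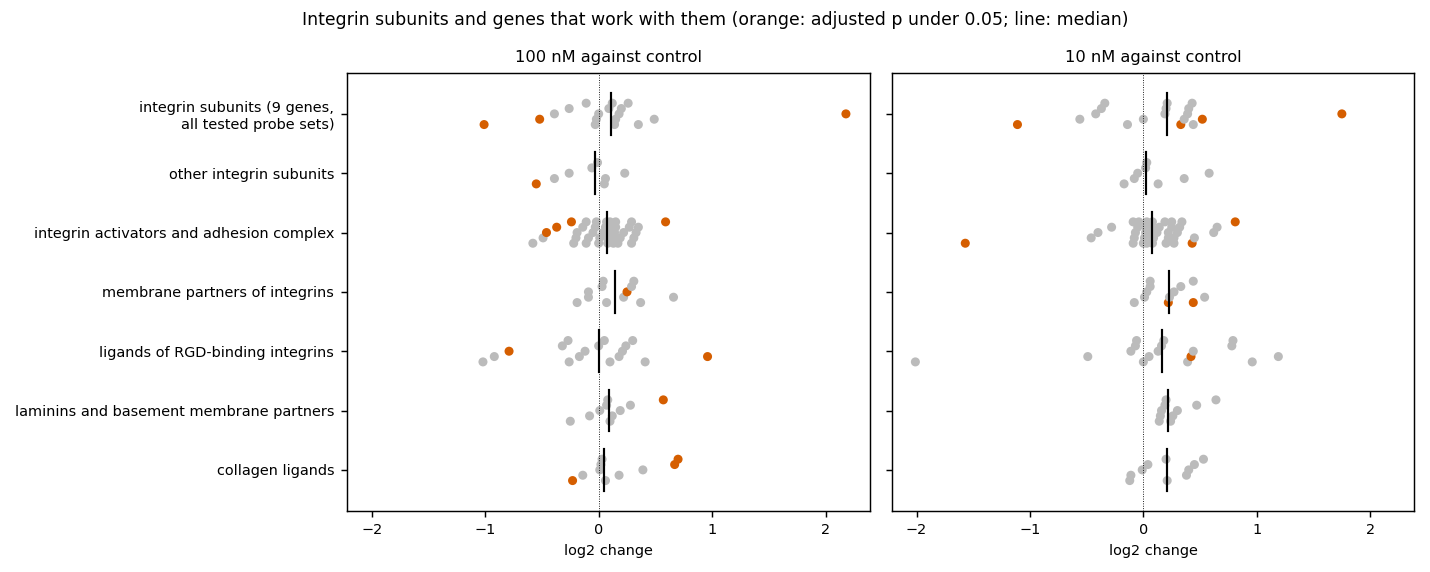
Log2 changes at 100 nM (left) and 10 nM (right) of the integrin subunit probe sets and of genes in 6 related lists, each point 1 probe set or 1 gene, orange where the adjusted p was under 0.05, with a line at each median. Medians lie between -0.04 and 0.23, and Itgb3 at 2.18 is the point farthest to the right at 100 nM.

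Of 17 measured ligands of integrins that read the RGD motif, 1 rose and 1 fell at 100 nM (11.8%, against 12.1% of all genes) and 1 rose at 10 nM (5.88%, against 8.67%). Fbn2, the fibrillin of developing tissue, rose by 0.96 ± 0.23 at 100 nM. With the set-aside arrays in the shared spread it was not called (adjusted p = 0.196, limma), at an unchanged 0.96. Nor was it called in either set of replicates alone, at 0.94 and 0.98. Edil3, a secreted ligand of Itgav receptors, fell by 0.79, and passed in 6 leave-one-out fits, those without a 10 nM array, 100 nM replicate 3 or 4 or control replicate 6. Tnc, which encodes tenascin-C, rose by 0.42 at 10 nM but was at -0.18 with the set-aside arrays included, and it was not called when 10 nM replicate 1 or replicate 2 was dropped (limma, highest adjusted p 0.108). The gene of fibronectin, Fn1, changed by -0.17 at 100 nM, and that of osteopontin, Spp1, by -1.02, with no call for either.

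Of 10 measured laminin and basement membrane genes 1 was called at 100 nM, against 12.1% of all genes. This was Lamb2, a laminin beta chain, which rose by 0.57 ± 0.12. With the set-aside arrays in the shared spread it was not called (adjusted p = 0.16, limma), at an unchanged 0.57. Nor was it called in replicates 1, 2 and 6 (0.37). None was called at 10 nM, where 8.67% of all genes were (limma; 3 of 10 at an unadjusted p under 0.05). Of 10 collagen genes 2 rose and 1 fell at 100 nM (30.0%, against 12.1% of all genes). Col6a2 and Col6a1, chains of collagen VI, rose by 0.70 ± 0.14 and 0.67 ± 0.17, with the second Col6a2 probe set at 0.16 and uncalled. Both genes lost their calls with the set-aside arrays in the shared spread (adjusted p = 0.099 and 0.204, limma). Their changes stayed at 0.70 and 0.67. Col6a1 also did not pass without 100 nM replicate 2 or 5 or control replicate 3 or 4 (limma, highest adjusted p 0.0545). Col5a2, a chain of collagen V, fell by 0.23 on 1 probe set and 0.41 on the other. The first was not called with the set-aside arrays in the shared spread (adjusted p = 0.524, limma), at an unchanged -0.23. None of the 10 was called at 10 nM (limma; 3 at an unadjusted p under 0.05).

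**Figure D4:**
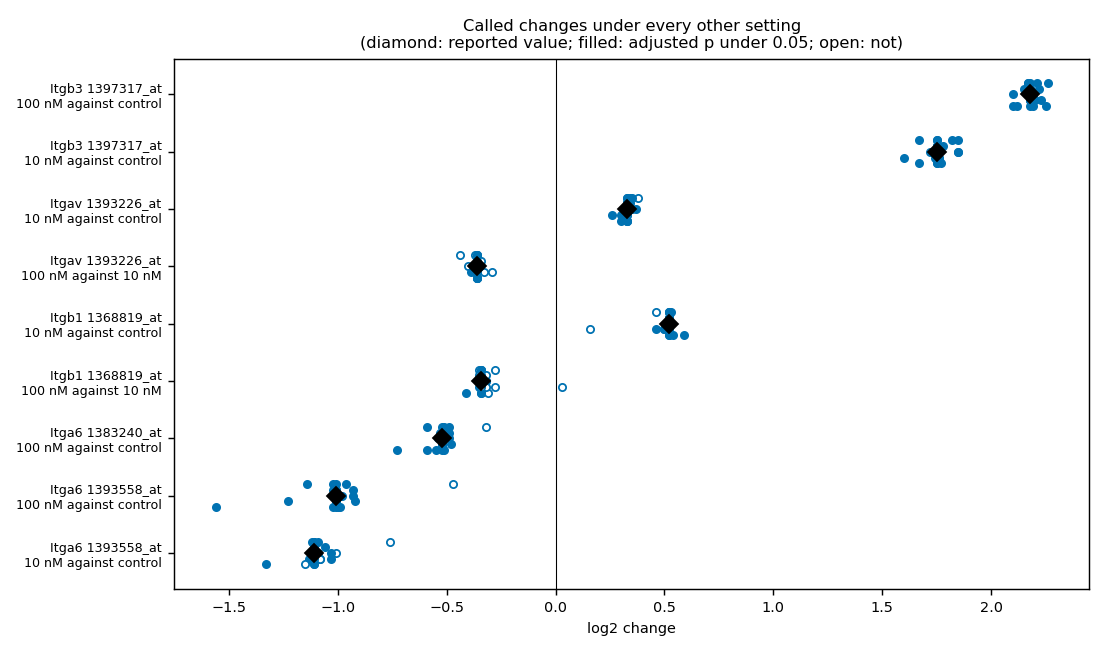
Log2 change of each called integrin subunit result as reported (diamonds) and under each other setting or with 1 array left out (circles, filled where the adjusted p was under 0.05). Itgb3 is called throughout, from 2.10 to 2.26 at 100 nM, while the Itgb1 difference between the doses reaches 0.03 with the set-aside arrays included.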

How the data were processed

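Cultured fetal rat gubernacula were measured on 17 Affymetrix arrays, of which 15 were used. Per the labels, biotin-labelled cRNA was made from 150 ng of total RNA, and the deposited log2 values were made by the authors with GCRMA, per the submitters' processing notes (version not given in the sources used here). GCRMA corrects background by probe sequence, normalizes arrays and summarises probe sets. The labels do not name the log base; base 2 is read from the range, 2.11 to 16.9. Replicates are separate cultures, and their number limits the precision.

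Probe sets above 2.285 (the 40th percentile) in at least 3 arrays were tested, 18938 in all. The 3 groups were fitted together with limma 3.58.1 in R 4.3.3 (lmFit, eBayes), 2-sided, with Benjamini-Hochberg adjustment at 0.05. The fit was tested on simulated data. Gene symbols were updated through GRCr8 identifiers (20764 of 20832 matched). In lists, the probe set with the highest mean stands for a gene, and up to 4 called genes per direction are named. The members and lists were chosen with earlier results of these data known.

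The 10 nM replicates 4 and 5 were left out because the submitters' design notes call them outliers with a low cRNA yield. Alternatives were all 17 arrays, no filter or a stricter one, a further quantile normalization, only the 2 groups compared, a trended and robust eBayes, each set of replicates alone or as a term, the replicate number as a block, and leaving out each array in turn.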

Additional observations from a re-analysis of the deposited data

Results flagged for a closer look

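In 7 of 34 groups of 6 arrays examined, 1 array stood apart from the rest; chance does this in about 1 in 20 groups, and probe sets of a gene are not independent. Control replicate 6 was lowest for Itgav 1383880_at (5.03, the next at 5.97) and for Itga6 1383240_at (9.94, the next at 10.28), and highest for Itga7 1370937_a_at (6.78, the next at 6.28). Control replicate 2 was lowest for Itga6 1393558_at (4.68, the next at 5.73) and for Itgav 1393226_at (9.12, the next at 9.29). At 100 nM replicate 1 was lowest for Itgb5 1370802_at (7.82, the next at 8.36), and replicate 2 was highest for Itga6 1371186_at (2.26, the next at 2.12), which is near the floor.

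On the set-aside 10 nM arrays, which entered only the alternative fit of all 17 arrays, Itgb3 1397317_at had a mean of 7.77, above every control array. The weak Itgb5 probe set 1396133_at had a mean of 3.31 there, also above every control, while the 3 arrays used at 10 nM had a mean of 2.49.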

How the results depend on the processing

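Over 17 probe sets and 3 comparisons, 1181 of 1229 other values kept their side of the threshold, 35 lost a call, 12 gained one and 1 reversed, the Itgb1 1368819_at difference between the doses, at 0.03 with all 17 arrays. Most of the 1229 belong to results without a call, so the total does not measure how firm the calls were. The dose differences of Itgav 1393226_at and Itgb1 1368819_at lost their calls in 5 and 10 of 15 leave-one-out fits, and the Itgb3 calls against control were kept in all 15. The integrin count at 100 nM was 3 to 4 without 1 array, and 1 in replicates 1, 2 and 6 alone; at 10 nM it was 3 to 6, and 1 in those replicates. Between the doses it was 0 with all 17 arrays, without the filter, in those replicates and with only the 2 groups fitted, and 0 to 2 without 1 array. Over all probe sets, replicates 1, 2 and 6 alone, without a 10 nM replicate 6, gave 200 calls at 100 nM, 559 at 10 nM and 134 between the doses. Replicates 3, 4 and 5 alone gave 1691 at 100 nM. All 17 arrays gave 1008 at 100 nM, where the set-aside arrays alter only the shared estimate of the spread. Without 1 array the counts ran from 1442 to 2616 at 100 nM and from 1020 to 2495 at 10 nM, with 1256 without 10 nM replicate 1 and 1020 without replicate 3. Between the doses, where 271 were called, they ran from 3 to 619: 101, 127 and 3 without 10 nM replicate 1, 2 or 3, 139, 56, 121, 619 and 98 without 100 nM replicate 1, 2, 3, 5 or 6, and 149, 149 and 133 without control replicate 3, 4 or 5. That count was 22 without the filter, 3 with only the 2 groups and 531 with the replicate sets as a term. A fit that leaves out a 10 nM array keeps 2 there.

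Same-numbered arrays were not taken as pairs, since the labels give a number alone and not every pair correlated: of 12 same-numbered pairs 6 correlated above 0.1 in their deviations from the group means (from -0.071 to 0.199), and 2 of 15 arrays correlated best with their own number. With the replicate block the integrin counts were 3 at 100 nM, 4 at 10 nM and 1 between the doses, and 429 probe sets were called between the doses. The block ended the calls of Itgav between the doses (-0.38, adjusted p = 0.0618, limma) and Itga6 1393558_at at 10 nM (-1.01, adjusted p = 0.0907), and made one for Itgb1 1387346_at at 10 nM (0.53, adjusted p = 0.0308). Among named genes it ended those of Itgal, Nedd9, Myod1 and Cd68 at 100 nM and of Src, Cd63, Tnc and Kdr at 10 nM.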
